A study of Mus musculus with 6 samples.

Results

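The 10 genes described here encode Sox transcription factors of the developing spinal cord, taken from a list of symbols and all found among the 55433 genes of the deposited count files. They fall into subgroups by family: Sox1, Sox2 and Sox3 (SoxB1), Sox21 (SoxB2), Sox4, Sox11 and Sox12 (SoxC), Sox5 and Sox6 (SoxD) and Sox9 (SoxE). All 10 passed the filter on low counts and were tested among 17711 genes. RNA came from whole spinal cords of C57BL/6J mouse embryos at E13.5. There were 3 libraries of genotype NFIA-ff, labelled control, and 3 of genotype NFIA-ff, Nestin-cre, labelled NFIAcKO. The labels do not say whether these were separate embryos or litters, so p-values measure the spread between these samples. All 6 therefore carried the floxed Nfia allele, and the cre transgene, which Nestin regulatory sequence drives in neural progenitors, was present only in the second group. Effects of cre itself and of recombination cannot be told apart in this design.

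Sox proteins bind DNA through a shared HMG domain and act with partner factors, among them POU proteins. In the neural tube SoxB1 proteins keep progenitors undifferentiated, and Sox21, of the SoxB2 group, opposes them and favours neuronal differentiation. SoxC proteins switch on neuronal genes as progenitors leave the cell cycle, SoxD proteins lack an activation domain of their own and modulate other Sox factors, and Sox9 is needed for progenitors to turn from making neurons to making glia. Sox9 is also known to activate Nfia at the onset of gliogenesis, and the proteins act together on astrocyte genes.

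The libraries held between 43393053 and 51465763 gene counts each. Nfia itself was higher in the libraries labelled NFIAcKO, at 60.1, 59.1 and 79.2 CPM in control replicates 1 to 3 and 106, 108 and 119 CPM in NFIAcKO replicates 1 to 3 (CPM, counts scaled to a common TMM-adjusted library size; log2 fold change 0.75, edgeR adjusted p = 0.0031). A count over the whole gene also takes reads from exons outside the floxed part, so it checks neither the deletion nor the labels. Its direction was opposite to a loss of Nfia RNA, and every direction below is that of the labels. Among the libraries, control replicate 3 was the highest control for all 10 Sox genes. Its file and that of NFIAcKO replicate 3 share the number 4087 in their names, against 3910 for the other 4. Xist was at 335 and 201 CPM in control and NFIAcKO replicate 2 and at most 0.0635 CPM elsewhere, so replicate 2 of each group was taken as female. Genes of the cord were present, since 6 Hox genes of the cord summed to 704 to 992 CPM and 7 forebrain genes to 8.79 to 13.0 CPM.

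The upstream sequences of Sox2, Sox4, Sox11 and Sox12 are shown because these are the 4 members with the highest level per kb and because Sox11 and Sox12 moved together while Sox2 did not pass the test. RefSeq promoter windows on GRCm38.p6 (250 bases before to 50 after a start) were found for 8 of the 10 members, all but Sox3 and Sox9. The stretches below run 5′ to 3′ on the strand of the gene and stop at the start of the gene in RefSeq or GENCODE, whichever lies further upstream. Capitals mark the searched words on either strand: TTGGC, the core of the binding site of NFI proteins, CCAAT, the box of NF-Y, and the Sox-type words ACAAT and ACAAAG.
Sox2 promoter, chr3:34649745-34649994, plus strand: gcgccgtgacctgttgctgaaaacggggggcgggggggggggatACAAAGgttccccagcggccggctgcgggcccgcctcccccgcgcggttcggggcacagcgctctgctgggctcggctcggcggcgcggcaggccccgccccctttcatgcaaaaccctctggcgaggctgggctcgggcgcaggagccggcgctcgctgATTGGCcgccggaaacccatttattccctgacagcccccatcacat
Sox4 promoter, chr13:28953714-28953949, minus strand: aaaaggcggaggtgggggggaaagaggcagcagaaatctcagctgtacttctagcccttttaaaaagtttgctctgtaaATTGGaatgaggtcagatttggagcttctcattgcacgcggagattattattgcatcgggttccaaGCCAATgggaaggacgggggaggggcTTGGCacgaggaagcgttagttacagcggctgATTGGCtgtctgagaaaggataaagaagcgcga
Sox11 promoter, chr12:27342719-27342968, minus strand: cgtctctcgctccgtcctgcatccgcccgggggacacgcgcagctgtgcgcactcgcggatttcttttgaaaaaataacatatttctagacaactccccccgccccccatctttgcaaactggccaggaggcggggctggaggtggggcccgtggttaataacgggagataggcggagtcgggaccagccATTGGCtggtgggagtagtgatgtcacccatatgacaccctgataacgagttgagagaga
Sox12 promoter, chr2:152398064-152398296, minus strand: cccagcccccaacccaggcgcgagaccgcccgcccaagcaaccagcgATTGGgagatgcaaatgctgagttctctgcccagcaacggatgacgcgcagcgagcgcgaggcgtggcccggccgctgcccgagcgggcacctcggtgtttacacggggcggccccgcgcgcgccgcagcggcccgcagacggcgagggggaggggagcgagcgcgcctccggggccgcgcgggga

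The word ATTGGC, in which TTGGC overlaps a reversed CCAAT, stood at a like place in 3 of these promoters. It began 46 bases before the RefSeq start in Sox2, 47 bases in Sox4 and 60 bases in Sox11, and Sox4 held a further copy on the other strand 105 bases before the start. Of 32851 RefSeq promoter windows, 14.7% held ATTGGC or its complement, 46.7% held TTGGC and 37.4% held CCAAT. Sox12 had CCAAT without TTGGC, and Sox1 likewise, while the Sox21 window held none of the searched words. The paired site, TTGGC followed after 5 bases by GCCAA, was found in none of the 13 member windows and in 0.0365% of all windows. ACAAAG was in the window of Sox2 (18.7% of all windows) and in 5 of the 6 windows of Sox6, and ACAAT in that of Sox5 and in 3 windows of Sox6 (31.0% of all windows). These are matches of letters in a window and say nothing of binding.

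The SoxC genes were the most abundant members. Per kb of annotated exon, Sox4 stood at 228 ± 22.7 CPM per kb (SD, n = 3) in the libraries labelled control, Sox11 at 112 ± 11.8 and Sox12 at 82.7 ± 10.2. Sox2 followed at 65.3 ± 11.3 CPM per kb and Sox9 at 18.4 ± 3.11. The remaining members were lower, with Sox21 at 8.52, Sox3 at 6.97, Sox1 at 5.03, Sox6 at 3.23 and Sox5 at 1.53 CPM per kb. In the control libraries neighbours in this order did not overlap in range, except Sox12 with Sox2 and Sox21 with Sox3. In the NFIAcKO libraries the order was the same, Sox12 lay clear of Sox2 (lowest 101 against highest 81.2 CPM per kb), and Sox21 overlapped Sox3 and Sox3 overlapped Sox1. The exons of Sox5 and Sox6 add up over many transcripts, which lowers their level per kb. On the longest transcript Sox6 came to 5.52 and Sox5 to 3.04 CPM per kb in control, which put Sox6 above Sox1. Fewer cells that express a gene and less RNA per cell cannot be told apart in these bulk samples.

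**Figure D1:**
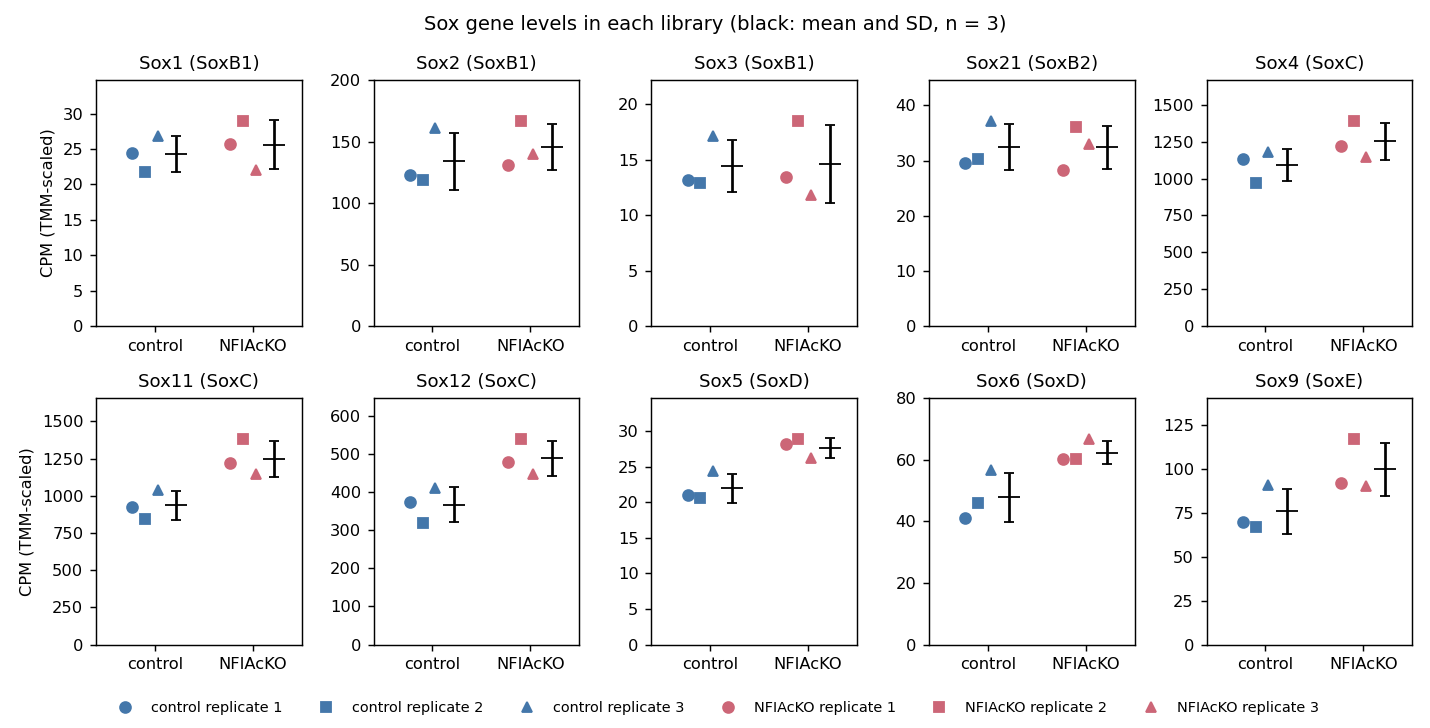
Level of each Sox gene in every library, in CPM on TMM-scaled library sizes, with an axis from 0 in each panel; blue points are control and red points NFIAcKO libraries, marker shapes give the replicate number, and black bars show mean and SD (n = 3). The groups separate for Sox11, Sox12, Sox5 and Sox6 and overlap for the other 6 genes, and control replicate 3 (blue triangle) is the highest control in all 10 panels.

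Of the 10 members, 4 rose in the libraries labelled NFIAcKO and 0 fell, by edgeR's quasi-likelihood test at a Benjamini-Hochberg adjusted p under 0.05 over 17711 genes. Those that rose were Sox11, Sox12, Sox5 and Sox6. Among all tested genes 7.86% rose and 6.08% fell, and the median log2 fold change was 0.27 over the members and -0.01 over all tested genes. The groups did not overlap, with NFIAcKO higher, for the same 4 members, and did so for 17.3% of all tested genes, against 16.1% with NFIAcKO lower. Among the listed members of SoxB1, SoxC and SoxD, 0 of 3, 2 of 3 and 2 of 2 passed. The listed SoxB2 and SoxE genes passed in neither direction. DESeq2 and a fit with no filter on low counts also called Sox9, which makes 5, where 13.6% of genes with an adjusted p in DESeq2 and 5.64% of genes without the filter rose. No member fell in edgeR, DESeq2 or limma-voom, and 0 were lower at an unadjusted p under 0.05, since all 10 edgeR log2 fold changes were above 0. The count of 4 rested on the libraries used: it was 0 without control replicate 1, NFIAcKO replicate 1 or NFIAcKO replicate 2, 1 without NFIAcKO replicate 3, 2 without control replicate 2 and 7 without control replicate 3. The share of all tested genes that rose moved in the same direction, to 1.55%, 1.72%, 3.29%, 1.79%, 3.88% and 14.8% in that order.

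No SoxB1 gene passed the test. Sox2 (chr3:34650405-34652461, plus strand, 1 exon), the SoxB1 gene that marks neural stem cells, was at 123, 119 and 161 CPM in control replicates 1 to 3 and at 131, 167 and 139.9 CPM in NFIAcKO replicates 1 to 3. The groups overlapped, since control replicate 3 exceeded NFIAcKO replicates 1 and 3. The log2 fold change was 0.12 (95% interval -0.14 to 0.38, adjusted p = 0.55). Sox1 (chr8:12395295-12400126, plus strand, 1 exon), which acts with Sox2 in progenitors, was at 24.5, 21.7 and 26.8 CPM in control and 25.7, 29.0 and 22.1 CPM in NFIAcKO, with NFIAcKO replicate 3 below 2 of the 3 controls (0.07, interval -0.18 to 0.32, adjusted p = 0.72). Sox3 (chrX:60891366-60893430, minus strand, 1 exon), an X-linked SoxB1 gene, was at 13.2, 12.9 and 17.1 CPM in control and 13.4, 18.5 and 11.8 CPM in NFIAcKO. NFIAcKO replicate 2, a female, was the highest and NFIAcKO replicate 3 the lowest of the 6, and the interval of -0.33 to 0.37 was the widest among the members (0.02, adjusted p = 0.96). Sox21 (chr14:118233232-118237030, minus strand, 1 exon), the SoxB2 gene that counters SoxB1 proteins, was at 29.6, 30.3 and 37.2 CPM in control and 28.2, 36.0 and 33.0 CPM in NFIAcKO, for group means of 32.4 ± 4.21 and 32.4 ± 3.91 CPM (SD, n = 3; 0.0014, interval -0.24 to 0.24, adjusted p = 0.995). These intervals leave room for changes of up to 0.24 to 0.38 on the log2 scale, so a small difference was not detectable with 3 libraries a group.

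Around these genes the annotation holds overlapping transcripts. Sox2 lies within an intron of the noncoding gene Sox2ot on the same strand, with no shared exonic base, and Sox2ot stood at 22.2 ± 2.59 CPM in control and 19.4 ± 1.70 in NFIAcKO (n = 3, SD), a log2 difference of -0.20 (adjusted p = 0.26). Sox1ot, which spans Sox1 in the same way, was at 2.96 ± 0.304 and 3.44 ± 0.492 CPM (0.22, adjusted p = 0.46). Over 18.8% of the exonic bases of Sox21 and 54.6% of those of Sox4 another gene is annotated on the opposite strand (Gm4675 and Gm26735). Gm4675 had 54 to 73 counts per library, and Gm26735 was not among the genes counted. Whether the counting used strand is unknown here, and the values of Sox4 and Sox21 are less certain than the rest. The same holds for Sox5, which shares 9.25% of its exonic bases with the antisense gene Sox5os1 (0 counts in every library).

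Of the SoxC genes, Sox11 and Sox12 rose and Sox4 did not pass. Sox11 (chr12:27334264-27342574, minus strand, 1 exon), which turns on neuronal genes in newly born neurons, was at 925, 842 and 1037 CPM in control replicates 1 to 3 and at 1219, 1380 and 1146 CPM in NFIAcKO replicates 1 to 3. All 3 NFIAcKO libraries exceeded all 3 controls, and Sox11 rose by 1.34-fold (log2 fold change 0.42, SE 0.10, adjusted p = 0.016). Sox12 (chr2:152393611-152398063, minus strand, 1 exon), a weaker activator of the same family, was at 375, 320.1 and 411 CPM in control and 481, 539.5 and 448 CPM in NFIAcKO. These groups did not overlap either, and Sox12 rose by 1.33-fold (0.41, SE 0.10, adjusted p = 0.018). Sox4 (chr13:28948919-28953713, minus strand, 1 exon), which overlaps Sox11 in expression and function, was at 1131, 972 and 1179.7 CPM in control and 1223, 1392 and 1146 CPM in NFIAcKO. Control replicate 3 exceeded NFIAcKO replicate 3, and the fold change of 1.15 did not pass (0.20, SE 0.10, interval -0.02 to 0.41, adjusted p = 0.21). Sox4 and Sox11 had the same count, 54135, in NFIAcKO replicate 3, and different counts in the other 5 libraries. Summed per kb, SoxC genes were 6.05, 5.47 and 5.02 times the SoxB1 genes in control replicates 1 to 3 and 6.74, 6.01 and 6.10 times in NFIAcKO replicates 1 to 3, ranges that overlap by a small margin.

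Both listed SoxD genes rose as counted. They were the lowest members per kb of annotated exon, but on the longest transcript Sox6 stood above Sox1. Sox5 (chr6:143828425-144781977, minus strand), known for its part in neuronal subtype choice and cell cycle exit, was at 21.1, 20.6 and 24.4 CPM in control and 28.2, 28.9 and 26.2 CPM in NFIAcKO, with no overlap (1.26-fold, log2 fold change 0.33, SE 0.10, adjusted p = 0.042). Sox6 (chr7:115470872-116038796, minus strand), its close relative and partner in restraining oligodendrocyte maturation, was at 41.0, 46.1 and 56.6 CPM in control and 60.2, 60.3 and 66.7 CPM in NFIAcKO (1.30-fold, 0.38, SE 0.11, adjusted p = 0.030). The Sox6 controls spread widely, with a coefficient of variation of 16.6%, against 5.94% in NFIAcKO. Sox6 was also the member for which NFIAcKO replicate 3 was the highest library, while replicate 2 was the highest NFIAcKO library for the other 9.

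Sox9 (chr11:112782224-112787760, plus strand, 3 exon blocks), the SoxE gene of the progenitor to glia switch, missed the threshold by a small margin. It was at 70.0, 67.1 and 90.7 CPM in control and 92.1, 117 and 90.4 CPM in NFIAcKO. Control replicate 3 and NFIAcKO replicate 3 were level, and the other NFIAcKO libraries lay above all controls. On the log2 scale it was 0.40 higher (SE 0.13, interval 0.12 to 0.67), close in size to Sox11 and Sox12 with more spread, and the adjusted p was 0.054. DESeq2 called it (adjusted p = 0.0128), limma-voom did not (0.0541), and it passed without control replicate 3 (log2 fold change 0.54, adjusted p = 0.000409).

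**Figure D2:**
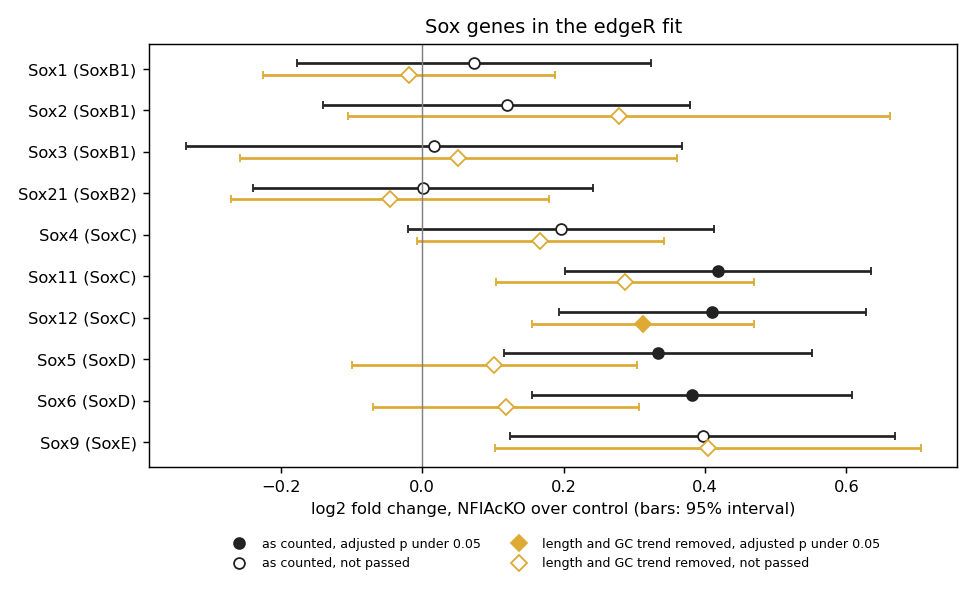
Log2 fold change of each Sox gene, NFIAcKO over control, with its 95% interval; black circles are the edgeR fit as counted and yellow diamonds the fit with the gene length and GC trend removed, filled where the adjusted p is under 0.05. Sox11, Sox12, Sox5 and Sox6 are filled as counted, and Sox12 is the filled one once the trend is removed.

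Long genes were higher and short genes lower in the libraries labelled NFIAcKO across the whole table, and the Sox genes span that range, from 2057 bp of exon for Sox2 to 14832 bp for Sox6. In the length octile of Sox5 and Sox6 32.9% of all tested genes rose, in that of Sox11 14.4%, in that of Sox12, Sox9, Sox4 and Sox1 3.2%, and in that of Sox2 and Sox3 0.731%. With the trend of each library with length and GC content removed, 1 of 10 members, Sox12, rose and 0 fell, against 3.82% and 3.87% of all tested genes. Sox12 then stood at 0.31 (SE 0.07, adjusted p = 0.027), and Sox11 stood at 0.29 (SE 0.09, adjusted p = 0.055). Sox5 and Sox6 moved to 0.10 and 0.12 (adjusted p = 0.54 and 0.43), with intervals of -0.10 to 0.30 and -0.07 to 0.31. Sox9 stayed at 0.40 (adjusted p = 0.10), and Sox2 moved up to 0.28 (interval -0.11 to 0.66, adjusted p = 0.34). The median over the 10 members was then 0.14, against 0.01 over all tested genes.

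**Figure D3:**
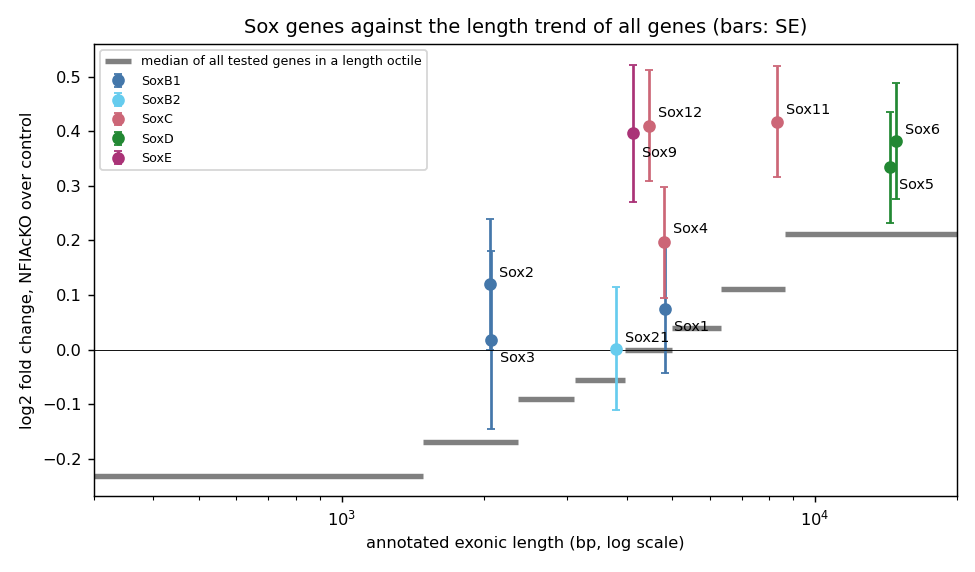
Log2 fold change of each Sox gene, NFIAcKO over control, with its SE, against annotated exonic length on a log axis; colours give the subgroup and grey bars the median of all tested genes in each length octile. The grey bars climb from -0.23 to 0.21 from the shortest to the longest octile (the outermost are drawn only within the axis). Sox9 and Sox12 lie 0.40 and 0.41 above the median of 0 in their octile. Every member lies above the median of its octile, among them Sox11 at 0.42 against 0.11 and Sox2 at 0.12 against -0.17.

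Ratios of counts within a library do not depend on the scaling between libraries. Relative to Sox2, chosen as the reference after the values were seen, the groups did not overlap for 3 of the 9 other members, Sox9, Sox11 and Sox12, all with NFIAcKO higher. In the same ratio, 3.73% of the other tested genes did not overlap with NFIAcKO higher and 5.7% with NFIAcKO lower. Sox9 was at 0.569, 0.564 and 0.563 of the Sox2 count in control replicates 1 to 3 and at 0.702, 0.702 and 0.646 in NFIAcKO replicates 1 to 3. Control replicate 3, which was level with NFIAcKO in Sox9 itself, stood with the other controls in this ratio. Sox11 was at 7.53, 7.06 and 6.43 times Sox2 in control and 9.30, 8.26 and 8.19 times in NFIAcKO, and Sox12 at 3.05, 2.69 and 2.55 against 3.67, 3.23 and 3.20 times. Each of these 3 differences reached the smallest p that 3 against 3 libraries allow, 0.10 in a two-sided exact permutation test, so none passes a threshold of 0.05, adjusted over 9 ratios or not. Sox4 to Sox2 overlapped, at 7.32 to 9.21 in control and 8.19 to 9.32 in NFIAcKO (exact permutation p = 0.40). Sox9, Sox11 and Sox12 are all longer than Sox2, and the ratios were taken from counts without the length and GC trend removed. With that trend removed, the log2 fold changes of Sox11 and Sox12, 0.29 and 0.31, were close to the 0.28 of Sox2. As counted they were 0.42 and 0.41 against 0.12. Sox9 stood at 0.40 in both fits, so it also lay closer to Sox2 with the trend removed.

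**Figure D4:**
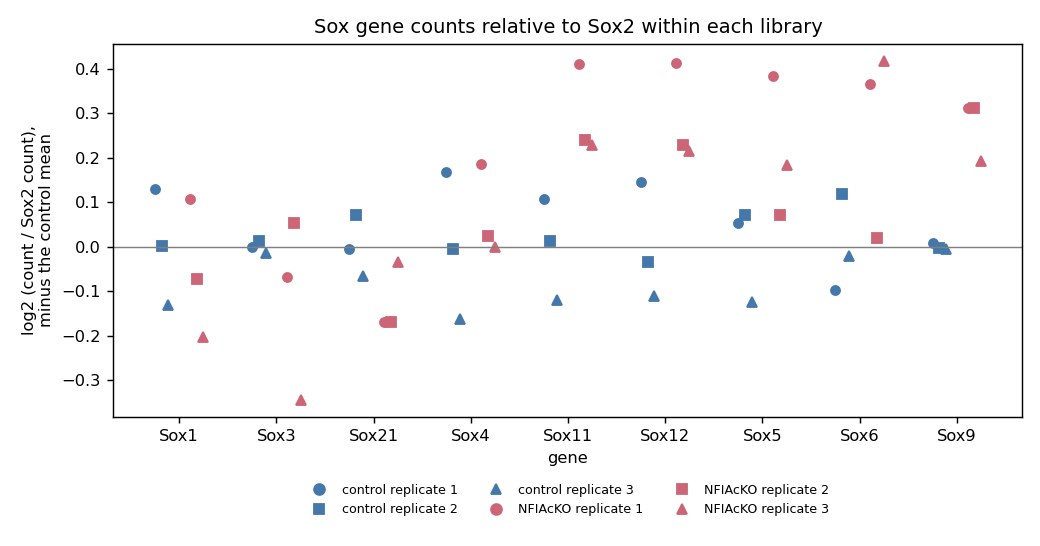
Count of each Sox gene relative to the Sox2 count of the same library, as a log2 ratio from which the mean of the 3 controls was taken; blue is control, red is NFIAcKO, and shapes give the replicate number. Red points lie above all blue points for Sox11, Sox12 and Sox9, and the 3 blue points of Sox9 nearly coincide.

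NFIAcKO replicate 2 was the highest library for 8 of the 10 members, control replicate 2 the lowest for 7, and control replicate 3 the second highest for Sox1, Sox2 and Sox3. Comparing libraries with the same number, Sox11, Sox12, Sox5 and Sox6 were higher in the NFIAcKO library in 3 of 3 pairs, Sox1, Sox2, Sox3, Sox4 and Sox9 in 2 of 3, and Sox21 in 1 of 3. Pair 3, the pair with the file number 4087, gave the lowest log2 ratio for all 10 members, at 0.15 for Sox11, 0.13 for Sox12, 0.10 for Sox5, 0.24 for Sox6, -0.005 for Sox9 and -0.20 for Sox2. Among the 4 libraries with the number 3910 the ratios were 0.56, 0.56, 0.45, 0.47, 0.60 and 0.29 in the same order, and in an edgeR fit of these 4 libraries 7 members rose, Sox2, Sox4 and Sox9 with the 4 named, beside 16.1% of all genes tested in that fit. In the libraries with low Xist alone, 2 against 2, no member was called (3.01% of all genes rose), with log2 ratios of 0.27 for Sox11, 0.24 for Sox12, 0.26 for Sox5 and 0.40 for Sox6. Fits over all 6 libraries with the file number as a block, Xist as a covariate or the replicate number as a block each called the same 4 members.

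**Figure D5:**
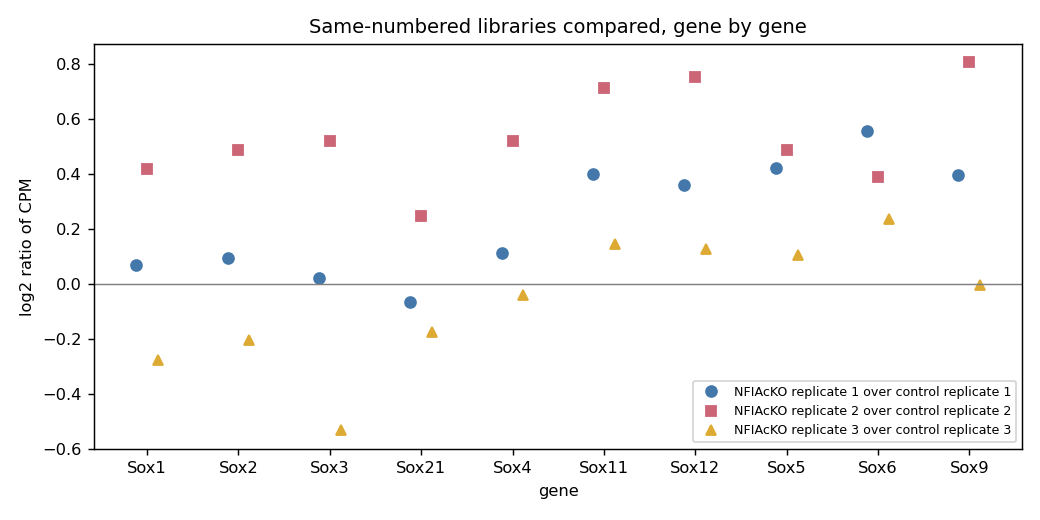
Log2 ratio of CPM between the NFIAcKO and the control library of the same replicate number, for each Sox gene; shapes and colours give the pair. Pair 3 (yellow triangles) is the lowest for all 10 genes, and Sox11, Sox12, Sox5 and Sox6 lie above 0 in all 3 pairs.

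The summed level of genes of dividing cells varied over the libraries in a similar way to the SoxB1 genes. It was 377, 379.8 and 559 CPM in control replicates 1 to 3 and 466, 611 and 487 CPM in NFIAcKO replicates 1 to 3. The sum was highest in NFIAcKO replicate 2 and control replicate 3, as was Sox2, and its part in the Sox levels was not tested. Not every gene of the list followed the sum. Mki67 was higher in all NFIAcKO libraries than in any control. Cdk1 was higher in control replicates 2 and 3 (28.9 and 32.3 CPM) than in any NFIAcKO library. Of 8 such genes 1 rose, Mki67, a protein of cycling nuclei, from 44.4 ± 13.1 CPM in control to 82.2 ± 7.13 CPM in NFIAcKO (n = 3, SD), by 0.89 on the log2 scale (adjusted p = 0.0225; 0.72 and 0.066 with the trend removed, when 0 of 8 passed), and 7 did not pass, among them Top2a (0.36, adjusted p = 0.40). Mki67 passed without control replicate 3 and in none of the fits that left out another library. The genes with profiles most like SoxB1 members, by the root mean square difference in centred log2 CPM over the 6 libraries among 11331 genes, included Ccnb1 and Aurkb for Sox3 (0.0507 and 0.0563), Cenpn and Rrm1 for Sox2 (0.0289 and 0.0371), and Nrm and Lhx2 for Sox1 (0.0214 and 0.0279). Ccnb1, Aurkb and Cenpn encode proteins of mitosis and Rrm1 a subunit of the enzyme that makes deoxynucleotides. Nearest to Sox11 were Cachd1 and Igf2bp2 (0.0247 and 0.0271), to Sox12 Zfp36l1 and Mex3a (0.0156 and 0.0244), to Sox4 Parp1 and Dbn1 (0.0274 and 0.0276), and to Sox9 Sp2 and Ecm1 (0.0309 and 0.0364). Cntn2 and Chek1 were nearest to Sox21 (0.0448 and 0.0456), Ddi2 and Pogz to Sox5 (0.0153 and 0.0165), and Notch2 was among the nearest to Sox6 (0.0421).

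Progenitor genes other than Sox went both ways. Of 12, 4 rose, 3 fell and 5 did not pass (median log2 fold change 0.15). The intermediate filament gene Nes, whose neural enhancer is a known target of SoxB1 and POU proteins, rose by 0.47 on the log2 scale, from a control level of 426 ± 83.8 to 589 ± 61.9 CPM (n = 3, SD; adjusted p = 0.029), and the cadherin gene Cdh2 from 365 ± 38.1 to 467 ± 22.5 CPM (0.36, adjusted p = 0.021). Fabp7, a lipid-binding protein of radial glia, fell from 981 ± 166 to 659.7 ± 35.8 CPM (-0.57, adjusted p = 0.0075), and the glutamate transporter gene Slc1a3 from 430.5 ± 66 to 329.9 ± 21 CPM (-0.38, adjusted p = 0.027). Once length and GC were accounted for, 0 of the 12 were higher and 1, Slc1a3, was lower by the test. Among 12 genes of glial onset, which include known partners and targets of Sox9 and NFIA, 1 rose (Nfia), 3 fell (Aldh1l1, Mmd2 and Hopx) and 7 of the 11 tested did not pass (median -0.0044, and -0.26 with the trend removed). Mmd2, which Sox9 and NFIA are known to activate together, fell to 19.1 ± 0.822 from 33.8 ± 4.45 CPM (-0.82, adjusted p = 0.0025), beside the Sox9 difference of 0.40 that did not pass. Not every gene of this list moved so. Apcdd1 stood at -0.0044 (adjusted p = 0.98), and at -0.26 (adjusted p = 0.048) with the trend removed. Zcchc24 stood at 0.16 (adjusted p = 0.17), and at 0.14 (adjusted p = 0.18) with the trend removed.

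Early neuron genes, the setting in which SoxC proteins act, were higher for part of the list. Of 12, 3 rose and 9 did not pass (median 0.20, and 0.18 with the trend removed, when 4 rose). Dcx encodes a microtubule protein of migrating neurons and rose by 0.45 on the log2 scale, from 1682 ± 182 to 2301 ± 117 CPM (n = 3, SD; adjusted p = 0.011), Rbfox3 by 0.41 (adjusted p = 0.014) and Elavl3 by 0.40 (adjusted p = 0.0185) on the log2 scale. Tubb3, a neuronal tubulin gene that SoxC proteins are known to activate, stood at 0.05 (adjusted p = 0.77), and Tead2, also a known SoxC target, at 0.17 (adjusted p = 0.31). Of 5 POU genes, partners of Sox proteins, 2 rose and 3 did not pass (median 0.28), namely Pou2f1 (0.45, adjusted p = 0.0094) and Pou3f3 (0.33, adjusted p = 0.035), and 0 of them with the trend removed. These lists share libraries and fits with the Sox genes and are no independent measure of them.

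Among other Sox genes, 1 passed. Of 8 tested, 1 rose and 7 did not pass (median 0.15). The one that rose was Sox7, a gene of endothelial cells, from 10.8 ± 2.84 to 15.7 ± 0.384 CPM (n = 3, SD; 0.54, adjusted p = 0.040), which did not pass with the trend removed (0.60, adjusted p = 0.052). Sox14, a SoxB2 gene of spinal interneurons, was at 12.2 ± 1.58 and 15.5 ± 0.737 CPM (0.35, adjusted p = 0.062), and passed with the trend removed (0.47, adjusted p = 0.029). Sox8, a SoxE gene like Sox9, was at 17.6 ± 1.58 and 13.9 ± 0.982 CPM (-0.33, adjusted p = 0.060), and Sox10, the third SoxE gene, at 18.7 ± 5.99 and 17.2 ± 1.77 CPM (-0.12, adjusted p = 0.72). Sox13, a SoxD gene like Sox5 and Sox6, was at 28.9 ± 5.08 and 33.6 ± 1.98 CPM and did not pass (0.22, adjusted p = 0.22). In the oligodendrocyte lineage, where Sox8, Sox9 and Sox10 all act, Nkx2-2 rose (0.51, adjusted p = 0.011) and Olig1 fell (-0.70, adjusted p = 0.0065) among 8 genes (median -0.01).

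Cells outside the cord can also express Sox5, Sox6, Sox9 and Sox4. Cartilage, in which Sox5, Sox6 and Sox9 act together, was represented by 12 genes with a summed level of 153 to 197 CPM in control and 184 to 196 CPM in NFIAcKO, mostly Col2a1, which neural progenitors also express. Of the 8 tested, 0 rose, 1 (Col9a3, -0.40, adjusted p = 0.027) fell and 7 did not pass, and the cartilage genes Acan, Matn1, Comp and Snorc stood at group means of 0.232 CPM or less. Neural crest and Schwann cell genes summed to 345 to 457 CPM in control and 455 to 503 CPM in NFIAcKO, most of it from Ngfr and Tfap2b, which cord neurons also express. Tfap2b rose (0.45, adjusted p = 0.0185), and Foxd3 had at most 1 count in a library. Of 10 endothelial genes 4 rose (Cdh5, Kdr and Sox7 among them), 1, Cldn5, fell and 5 did not pass, with sums of 294 to 349 and 373 to 399 CPM. Of 8 genes of meninges and pericytes 1 rose and 0 fell, with sums of 1526 to 1835 and 1684 to 2242 CPM. Of 7 tested microglial genes 2 fell and 0 rose (88.7 to 97.9 against 72.3 to 80.1 CPM), and of 8 sensory ganglion, 7 erythroid and 5 tested muscle genes 0 passed. With the length and GC trend removed, 2 endothelial genes and 1 erythroid gene were higher by the test, 0 genes of the meninges and pericyte list were, and 0 genes of these 3 lists or the microglial list were lower. The part of these cells in the Sox levels was not tested.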

How the data were processed

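RNA-seq was analysed for 6 libraries from whole spinal cords at E13.5, 3 labelled control and 3 labelled NFIAcKO. The authors deposited raw counts by gene symbol, whole numbers, with 1 file for each library. Without giving roles, the submitters' processing notes list mm10, HTSeq, STAR 2.6.1a and DESeq2, and the labels' protocols name RNeasy columns and an Illumina stranded mRNA kit. Annotation release and strand setting: not given in the sources used here.

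The 5 HTSeq summary lines (16.9 to 19.4% of a file) entered neither library sizes nor tests. All genes were fitted in edgeR 4.0.16 under R 4.3.3 (TMM, filterByExpr, robust quasi-likelihood F test, Benjamini-Hochberg over 17711 genes). Each SE was obtained by dividing the size of the log2 fold change by the root of F, and the 95% interval takes the t quantile at the fit's total degrees of freedom. The biological coefficient of variation was 11.5%. The procedure was tested on simulated data. Coordinates, overlaps, exonic length and GC content came from GENCODE M21 of GRCm38, the assembly of mm10, and 98.8% of tested genes had both length and GC values. The trend was removed through offsets from natural splines (5 df) fitted where mean log2 CPM exceeded 1 (prior count 2).

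Libraries of a group differed beyond sampling noise (chi-square per degree of freedom 11.9 to 50.2) and were counted as separate samples; the labels give no litters. Same-numbered libraries deviated together from their group means (r = 0.353, 0.397 and 0.193 at mean log2 CPM above 1). Libraries of unlike number gave -0.327 to 0.0888. The replicate number was therefore taken to mark pairs, which also share sex and file number. The main edgeR fit and the exact permutation tests did not use these pairs. The replicate number entered as a block only in alternative fits. Alternatives were DESeq2 1.42.0, limma-voom (limma 3.58.1), other scaling and filters, covariates and left-out libraries. Named genes are all members, the 3 members of a list with the smallest p, and the 2 nearest profiles of each member (mean of at least 5 CPM, no Gm or Rik symbols). Members and lists were chosen with earlier results of these data known. Chosen after their values were seen were Nes, Hopx, Apcdd1, Zcchc24, Tubb3, Tead2, Sox10, Sox13, Sox2ot, Sox1ot, genes at or near 0 and the Sox2 ratios. A few genes that the naming rule selects are not reported here.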

Additional observations from a re-analysis of the deposited data

How the results depend on the processing

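The 4 members that rose kept that count with the replicate number as a block (4 members), the file name number as a block, Xist as a covariate, limma-voom and no robust shrinkage, and the replicate block changed no other member's call. It was 2 with upper quartile scaling, 1 with the length and GC trend removed and 1 with that trend removed together with the replicate block, 7 in the files numbered 3910 only, 0 in the libraries with Xist at or under 10 CPM, and 0 to 7 when 1 library was left out. Without control replicate 1, NFIAcKO replicate 1 or NFIAcKO replicate 2 it was 0, without NFIAcKO replicate 3 it was 1 (Sox11), without control replicate 2 it was 2, and without control replicate 3 it was 7. No member fell under any of these. Over all tested genes, leaving out 1 library gave 282 to 2703 higher and 139 to 2466 lower, against 1392 and 1076. The trend removed gave 676 and 686 (707 higher and 792 lower with the block), the files numbered 3910 gave 2888 and 2356, and the libraries with low Xist 536 and 313. Upper quartile scaling moved the split to 1057 higher and 1434 lower. Over 18 alternatives the log2 fold change ranged from 0.27 to 0.56 for Sox11, 0.24 to 0.56 for Sox12, 0.10 to 0.46 for Sox5, 0.12 to 0.52 for Sox6, 0.18 to 0.61 for Sox9 and 0.04 to 0.32 for Sox4. Members near 0 changed sign. Sox1 stood at -0.02 with the trend removed, also with the replicate block, and at -0.10 in the libraries with low Xist, and ranged from -0.02 to 0.16 with a library left out. Sox2 was at -0.07 in the libraries with low Xist. Sox3 was at -0.03 with upper quartile scaling, -0.0020 with the Xist covariate and -0.27 in the libraries with low Xist, and from -0.19 to 0.15 with a library left out. Sox21 was at -0.04 with upper quartile scaling, -0.0012 with the Xist covariate, -0.05 with the trend removed, with or without the block, -0.13 in the libraries with low Xist, and from -0.08 to 0.11 with a library left out. Of 30 other genes tried over 18 alternatives, none changed sign, and in 540 fits a call was lost 123 times and gained 20 times. The cause was not tested. The limits are 3 libraries a group, a length trend that follows the labels, and higher Nfia counts in NFIAcKO that cannot check the labels. The alternatives on the 4 libraries of 1 file number or of low Xist were chosen after seeing the data.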
